A study of Mus musculus with 4 samples.

Results

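The genes described here are 10 members of the transcriptional response to low oxygen, Bnip3, Ero1l, Egln1, Egln3, Ankrd37, Fam162a, Slc2a1, Ldha, Ak4 and Vegfa, followed across the cell classes of cultured mouse islets. They were taken by symbol from the gene annotation of the count tables, where all 10 were found among 32285 genes. Islets came from wild-type C57BL6J males aged 8 weeks and were kept in culture for 24 h. The groups were 1 mM imeglimin at 11.1 mM glucose, DMSO vehicle at 11.1 mM glucose, 1 mM imeglimin at 3.9 mM glucose and DMSO vehicle at 3.9 mM glucose, with 1 library in each. Imeglimin is an oral glucose-lowering drug. The islets were dispersed with Accutase, and RNA was counted in single cells with a 10x Genomics 3' kit as unique molecular identifiers (UMIs), tags that count each captured RNA molecule once. The islets were held in culture, outside the circulation, and the number of mice behind each library is not given in the sources used here.

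In cells with enough oxygen, prolyl hydroxylases mark the alpha subunit of hypoxia-inducible factor (HIF), which the von Hippel-Lindau protein then sends for destruction. When oxygen is short the subunit stays, pairs with ARNT and raises genes for glucose uptake, glycolysis, mitochondrial turnover, blood vessel growth and the hydroxylases themselves. In islets, beta cells burn glucose in their mitochondria to release insulin and keep lactate dehydrogenase A, the product of Ldha, very low, which is why Ldha is counted among the genes disallowed in beta cells.

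After limits on UMIs, genes and mitochondrial RNA, 8427, 7444, 8755 and 7166 cells were kept for imeglimin at 11.1 mM, vehicle at 11.1 mM, imeglimin at 3.9 mM and vehicle at 3.9 mM, with medians of 11400, 12035, 8832 and 11656.5 UMIs per cell. Cells were clustered, and clusters were named for the class whose marker genes led them, with the ending "-like" because the names rest on RNA alone. The insulin-rich beta-like class held 5442, 4839, 4427 and 4570 cells in the same order of groups, and its 9 marker genes, led by the insulin genes, summed to between 173500 and 438200 plain CPM, a count scaled to the total of the class. Different clusters held most of it in each library, which bears on every beta-like comparison. Clusters 3 and 4 held 55.5% and 35.2% of the imeglimin 11.1 mM cells, clusters 2 and 4 held 73.1% and 18.7% of the vehicle 11.1 mM cells, clusters 5 and 8 held 55.1% and 30.8% of the imeglimin 3.9 mM cells, and cluster 1 held 89.7% of the vehicle 3.9 mM cells. Cluster 4 is led by Ero1l, Bnip3, Pdyn and Fam162a, so members shaped it, and its size is not read as a result. Libraries shared between 15 and 24 of their cell barcodes in pairs. With 1 library per condition no test between conditions was possible, every interval covers counting error only, and differences between mice, cultures and library preparations cannot be told apart from those of treatment or glucose.

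All 10 genes are protein-coding and lie on 7 mouse chromosomes in the mm10 build, the GRCm38 assembly. Bnip3 is at chr7:138890836-138909519 on the minus strand and Ero1l at chr14:45283087-45318771 on the minus strand. Egln1 is at chr8:124908587-124949324, Egln3 at chr12:54178981-54203860 and Ankrd37 at chr8:45996902-46005707, all on the minus strand. Fam162a is at chr16:36043761-36071594 on the minus strand and Vegfa at chr17:46016993-46032369 on the minus strand. Slc2a1 is at chr4:119108711-119137983, Ldha at chr7:46841475-46855627 and Ak4 at chr4:101419277-101466995, all on the plus strand. Bnip3, Ankrd37, Fam162a and Slc2a1 overlap annotated genes on the opposite strand (for Ankrd37, Ufsp2 and Lrp2bp), and Ldha has named pseudogenes. Slc2a1 also overlaps Mir1957a on its own strand. Whether the counting used strand, and how it shared reads with pseudogenes, is not given in the sources used here, so the levels of these genes carry that uncertainty.

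The promoters of the members are shown because most of the genes shared a direction by glucose and because HIF binds a short core, written ACGTG or GCGTG. RefSeq promoter windows of 300 bases on GRCm38.p6, from 250 before a start to 50 after it, were found for all 10 genes, 15 windows in all since Ldha, Ak4 and Vegfa have several starts. Ero1l was matched through its RefSeq name Ero1a. Searched on both strands, ACGTG or GCGTG occurred in 14 of the 15 windows, against 43.8% of all 32851 windows. ACGTG alone occurred in 10 of the 15, against 19.6% of all windows. The genes were picked as members of the response to low oxygen, so a higher share can follow from that choice alone. The Ak4 windows that start at bases 101419039, 101419062 and 101419071 overlap and hold the same 2 matches, so the 15 are not all separate. The member windows are also richer in G and C, at a median of 67.3% against 52.7% for all windows, and how far base composition accounts for the count was not tested. The 150 bases before the start are printed 5′ to 3′ for 8 of the 9 genes that were higher at 11.1 mM glucose and for Vegfa, which did not share that direction, at the first listed start of each. Capitals mark the cores on either strand, where CACGT and CACGC are the reverse strand's spelling. In CACGTG the spellings of both strands overlap and count as 2 matches. The stretches are chr7:138909507-138909656 for Bnip3, chr14:45318573-45318722 for Ero1l, chr8:124949255-124949404 for Egln1 and chr16:36071562-36071711 for Fam162a, with chr12:54203875-54204024 for Egln3, all read on the minus strand, chr4:119108595-119108744 for Slc2a1 and chr7:46845654-46845803 for Ldha, with chr4:101419139-101419288 for Ak4, on the plus strand, and chr17:46032378-46032527 for Vegfa on the minus strand.
Bnip3: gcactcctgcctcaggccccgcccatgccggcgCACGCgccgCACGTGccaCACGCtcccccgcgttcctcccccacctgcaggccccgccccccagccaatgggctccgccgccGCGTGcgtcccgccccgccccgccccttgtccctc
Ero1l: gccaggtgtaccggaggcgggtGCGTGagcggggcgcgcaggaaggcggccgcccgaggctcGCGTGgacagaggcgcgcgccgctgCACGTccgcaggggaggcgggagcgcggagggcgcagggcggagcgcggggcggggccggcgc
Egln1: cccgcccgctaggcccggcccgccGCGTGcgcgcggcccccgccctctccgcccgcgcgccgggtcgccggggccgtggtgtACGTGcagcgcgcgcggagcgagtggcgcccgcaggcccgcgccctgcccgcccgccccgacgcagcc
Egln3: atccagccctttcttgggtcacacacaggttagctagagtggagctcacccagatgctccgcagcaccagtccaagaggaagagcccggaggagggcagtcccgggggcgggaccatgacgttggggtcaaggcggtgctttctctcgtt
Fam162a: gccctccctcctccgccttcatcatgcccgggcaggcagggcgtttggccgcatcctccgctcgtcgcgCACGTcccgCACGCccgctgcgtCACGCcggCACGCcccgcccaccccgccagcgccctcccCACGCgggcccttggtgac
Slc2a1: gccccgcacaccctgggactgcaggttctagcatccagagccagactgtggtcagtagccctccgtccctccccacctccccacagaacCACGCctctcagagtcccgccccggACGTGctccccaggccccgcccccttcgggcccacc
Ldha: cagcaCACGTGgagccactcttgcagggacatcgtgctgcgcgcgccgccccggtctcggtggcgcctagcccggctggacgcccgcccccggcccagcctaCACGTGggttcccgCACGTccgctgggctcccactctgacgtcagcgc
Ak4: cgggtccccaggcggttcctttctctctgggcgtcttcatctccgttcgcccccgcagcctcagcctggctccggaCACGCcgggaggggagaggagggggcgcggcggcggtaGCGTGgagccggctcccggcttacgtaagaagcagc
Vegfa: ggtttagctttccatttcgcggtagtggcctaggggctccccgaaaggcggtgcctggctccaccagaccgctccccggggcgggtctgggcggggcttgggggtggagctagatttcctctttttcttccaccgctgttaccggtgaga
Bnip3, Fam162a and Ldha each held 5 matches in these stretches, Ero1l held 3, Egln1, Slc2a1 and Ak4 held 2 each, and Egln3 and Vegfa held 0. Ankrd37, whose stretch is not printed because a match runs past its end, held 1. In the 300-base windows all 10 genes, Vegfa and Egln3 included, had ACGTG in at least 1 window, so the counts in the shorter stretches do not set Vegfa apart. A match describes letters only, and a count of 0 says only that these letters are not in that stretch.

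Levels are given in CPM, in which each class of a library is treated as 1 sample: its cells' UMIs were added up per gene and put on a common total, corrected for composition by edgeR's TMM factors over the 4 samples of the class. Plain CPM leaves that correction out. TMM factors are set within each class, so TMM-scaled levels compare the libraries of a class, and classes only roughly. Levels are compared for 1 gene at a time, not between genes. Brackets give 95% exact counting intervals.

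The oxygen-sensing members were higher at 11.1 mM glucose in beta-like cells. Egln1 encodes PHD2, the main prolyl hydroxylase acting on HIF. It stood at 184 CPM with imeglimin at 11.1 mM, 170 CPM with vehicle at 11.1 mM, 74.2 CPM with imeglimin at 3.9 mM and 95.2 CPM with vehicle at 3.9 mM. Both libraries at 11.1 mM were above both at 3.9 mM, with imeglimin above vehicle at 11.1 mM and below it at 3.9 mM. At 11.1 against 3.9 mM the ratio was 2.47-fold under imeglimin and 1.79-fold under vehicle. An Egln1 UMI was found in 71.4%, 69.9%, 54.9% and 69.0% of beta-like cells in the same order of groups. The share under vehicle thus hardly differed by glucose. Egln3 encodes PHD3, a hydroxylase that HIF itself induces, and was sparse in beta-like cells. It had 255 and 261 UMIs in the imeglimin and vehicle libraries at 11.1 mM, and 10 and 49 UMIs in the imeglimin and vehicle libraries at 3.9 mM. That is 3.65 CPM (3.21 to 4.12) and 3.92 CPM (3.46 to 4.42) at 11.1 mM, where the intervals overlap, and 0.189 CPM (0.0906 to 0.347) and 0.648 CPM (0.480 to 0.857) at 3.9 mM. At most 4.48% of beta-like cells held an Egln3 UMI in any library.

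Of the members that serve glucose uptake and anaerobic energy supply, Ldha had the widest span, also among all 10. Ldha encodes the lactate dehydrogenase subunit that favours turning pyruvate into lactate. It had 6763 UMIs with imeglimin at 11.1 mM, 2092 with vehicle at 11.1 mM, 9 with imeglimin at 3.9 mM and 187 with vehicle at 3.9 mM. In CPM these are 96.8 (94.5 to 99.1), 31.4 (30.1 to 32.8), 0.170 (0.0777 to 0.323) and 2.47 (2.13 to 2.85). No 2 of these intervals overlap. Imeglimin was 3.08-fold above vehicle at 11.1 mM and far below it at 3.9 mM. The share of beta-like cells with an Ldha UMI was 29.9% (28.7 to 31.2), 14.9% (13.9 to 15.9), 0.203% (0.093 to 0.386) and 1.42% (1.10 to 1.81) in the same order of groups. In vehicle at 3.9 mM the 187 UMIs lay in 65 cells, with up to 13 in 1 cell, so few cells set that level.

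Ldha is much higher in other cells of the same suspension, whose free RNA can enter any droplet. Stromal-like cells held 1006, 1208, 205 and 587 CPM of Ldha in the order imeglimin 11.1 mM, vehicle 11.1 mM, imeglimin 3.9 mM and vehicle 3.9 mM. Flt1, a VEGF receptor of endothelium, was counted at a low level in beta-like cells. It stood at 4500, 2967, 2267 and 2270 CPM in endothelial-like cells and at 0.587, 0.255, 0.416 and 0.159 CPM in beta-like cells in the same order. The source of the Flt1 UMIs in beta-like cells was not tested. Nor was it tested how much of the 9 Ldha UMIs with imeglimin at 3.9 mM came from other cells. Ratios against that library for Ldha, Ak4 and Egln3 rest on 9, 15 and 10 UMIs, so their logarithms are given with intervals and no fold is printed.

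Ak4 encodes a mitochondrial adenylate kinase induced by HIF, which moves phosphate between adenine nucleotides. It stood at 25.1 CPM with imeglimin at 11.1 mM, 19.9 CPM with vehicle at 11.1 mM, 0.283 CPM with imeglimin at 3.9 mM and 3.02 CPM with vehicle at 3.9 mM. Its order matched that of Ldha. At 3.9 mM the log2 ratio of imeglimin to vehicle was -3.86 (-5.01 to -2.91) for Ldha, -3.41 (-4.27 to -2.66) for Ak4 and -1.78 (-2.93 to -0.78) for Egln3. Slc2a1 encodes the glucose transporter GLUT1, the widely expressed carrier for basal uptake. Slc2a1 had 62.5 CPM with imeglimin at 11.1 mM, 40.5 CPM with vehicle at 11.1 mM, 31.4 CPM with imeglimin at 3.9 mM and 27.5 CPM with vehicle at 3.9 mM. It was the only member besides Vegfa with imeglimin above vehicle at both glucose levels, by 1.55-fold at 11.1 mM and 1.14-fold at 3.9 mM, but in plain CPM both genes were lower with imeglimin at 3.9 mM, with log2 ratios of -0.11 for Slc2a1 and -0.28 for Vegfa.

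Bnip3 and Fam162a, which also act at mitochondria, had the order of Ldha and Egln1. Bnip3 encodes a mitochondrial outer-membrane receptor for mitophagy, the removal of mitochondria by autophagy. It stood at 493 CPM (488 to 499) with imeglimin at 11.1 mM, 367 CPM (363 to 372) with vehicle at 11.1 mM, 77.6 CPM (75.2 to 80.0) with imeglimin at 3.9 mM and 138 CPM (135 to 140) with vehicle at 3.9 mM. A Bnip3 UMI was found in 83.4%, 78.4%, 54.4% and 71.1% of beta-like cells in that order, and in 55.1%, 48.3%, 20.7% and 31.9% once every cell was thinned to 3000 UMIs. The single beta-like cells with most Bnip3 held 56, 65, 9 and 72 UMIs in that order. Fam162a, a HIF-induced mitochondrial protein linked to cell death, stood at 230, 202.5, 40.3 and 105 CPM in the order imeglimin 11.1 mM, vehicle 11.1 mM, imeglimin 3.9 mM and vehicle 3.9 mM. A Fam162a UMI was found in 72.9%, 64.95%, 33% and 66.3% of beta-like cells in that order. In thinned cells the shares were 38.9%, 32.6%, 10.7% and 26.6%. Of the members above 5 CPM in both libraries at 3.9 mM, Fam162a was furthest apart between treatments there, with vehicle 2.6-fold above imeglimin.

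Ero1l encodes an oxidase of the endoplasmic reticulum that passes electrons from protein disulfide isomerase to oxygen as disulfide bonds form. Ero1l had 412 CPM with imeglimin at 11.1 mM, 326 CPM with vehicle at 11.1 mM, 80.1 CPM with imeglimin at 3.9 mM and 167 CPM with vehicle at 3.9 mM. Its order was again that of Bnip3 and Egln1. An Ero1l UMI was found in 82.8%, 72.3%, 54.1% and 77.75% of beta-like cells in the same order of groups. Under vehicle that share was lower at 11.1 mM. In thinned cells it was 37.45% with vehicle at 11.1 mM and 36.9% with vehicle at 3.9 mM. The beta-cell-enriched paralog of Ero1l, Ero1lb, had 351 CPM with imeglimin and 645 CPM with vehicle at 11.1 mM. Its log2 ratio there was -0.88, where Ero1l had 0.34. Ankrd37, an ankyrin repeat protein and HIF target, was the exception at 11.1 mM. It stood at 45.3 CPM (43.8 to 46.9) with imeglimin and 57.7 CPM (55.9 to 59.6) with vehicle at 11.1 mM, and at 10.9 CPM (9.99 to 11.8) with imeglimin and 19.3 CPM (18.4 to 20.3) with vehicle at 3.9 mM.

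Vegfa, the secreted growth factor that maintains the dense islet capillaries, did not follow glucose. Vegfa had 263 CPM (259 to 267) with imeglimin at 11.1 mM, 194 CPM (191 to 197) with vehicle at 11.1 mM, 234 CPM (230 to 238) with imeglimin at 3.9 mM and 230 CPM (227 to 234) with vehicle at 3.9 mM. The 2 libraries at 3.9 mM overlap, and the lowest level belongs to vehicle at 11.1 mM. At 11.1 against 3.9 mM the log2 ratio was 0.17 under imeglimin and -0.25 under vehicle. The receptor genes Kdr, Flt1, Nrp1 and Nrp2 were at most 0.623 CPM in beta-like cells of any library.

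**Figure D1:**
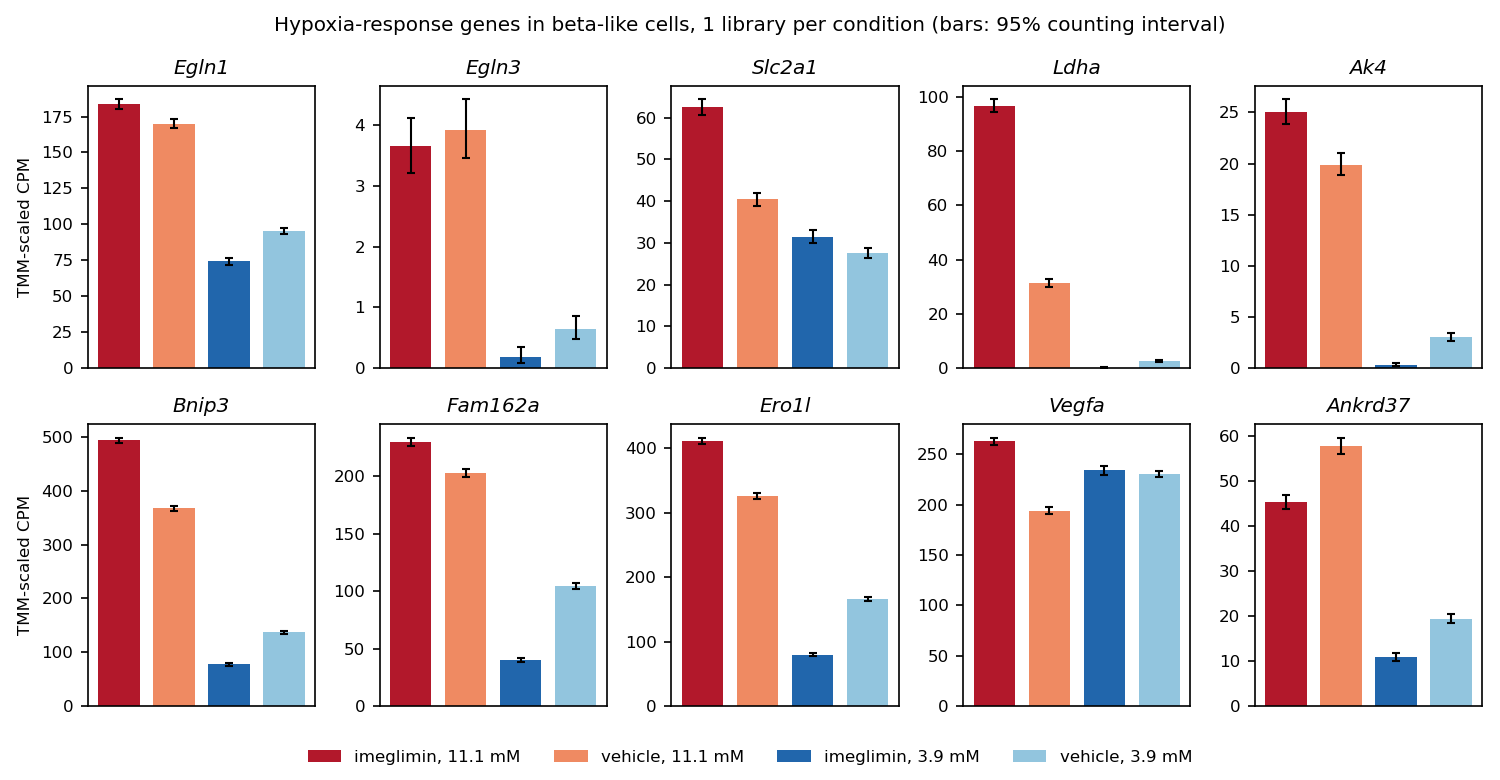
Level of each gene in beta-like cells, in TMM-scaled CPM on a linear axis from 0, with 1 bar per library in the order imeglimin 11.1 mM, vehicle 11.1 mM, imeglimin 3.9 mM and vehicle 3.9 mM, and 95% counting intervals. In 9 panels both 11.1 mM bars stand above both 3.9 mM bars, and in the Vegfa panel they do not.

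Imeglimin differed from vehicle at 11.1 mM glucose by small amounts in beta-like cells, Ldha aside. Of the 10 members 2, Ldha and Slc2a1, were at least 1.5-fold higher with imeglimin and 0 were at least 1.5-fold lower, where 5.94% of the 9684 genes that reached 5 CPM in one library or the other were that much higher and 5.61% that much lower. Egln3 was under 5 CPM in both libraries. The median log2 ratio of the members was 0.34, beside 0.08 over all genes compared, and 8 of 10 ratios were above 0. Leaving out cluster 4 turned the median to -0.11, with Ldha at 0.66 and Bnip3 at -0.04. Members chose that cluster, and it holds a larger share of the imeglimin cells, so leaving it out lowers the imeglimin levels by construction. Slc2a1 was then at 0.48, under 1.5-fold.

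At 3.9 mM glucose the members were mostly lower with imeglimin. Of the 10, 0 were at least 1.5-fold higher and 7 at least 1.5-fold lower (Bnip3, Ero1l, Egln3, Ankrd37, Fam162a, Ldha and Ak4), where 11.1% of all genes compared were that much higher and 14% that much lower. Egln3, Ldha and Ak4 were under 5 CPM in both libraries. The median log2 ratio was -0.94, beside 0.03 over all genes, and it was -0.71 without cluster 4. The scaling matters here, since plain CPM placed the median of all genes 0.30 lower on the log2 scale and that of the members at -1.24. The insulin share of UMIs in thinned cells with fewer than 5 members was 18.7% with imeglimin and 10.3% with vehicle, and its part in the ratios was not tested.

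At 11.1 against 3.9 mM glucose the members were higher under either treatment. Under vehicle 8 of 10 were at least 1.5-fold higher and 0 that much lower, where 10.3% of all genes compared were that much higher and 18.5% that much lower. The median log2 ratio was 1.19, beside -0.13 over all genes. The exceptions were Slc2a1, at 1.47-fold, and Vegfa. In plain CPM Ero1l, Egln1 and Fam162a were also under 1.5-fold under vehicle, at log2 ratios of 0.569, 0.439 and 0.555. Under imeglimin 9 of 10 were at least 1.5-fold higher and 0 lower, where 16.9% of all genes were that much higher and 20.4% that much lower. The median was then 2.44, beside -0.07 over all genes. In plain CPM the medians of the members were 0.80 under vehicle and 2.30 under imeglimin, because that scaling moves all genes down by 0.40 and 0.14 on the log2 scale. Without cluster 4 they were 0.78 and 1.37, Ero1l stood at 0.09 under vehicle, and Slc2a1 turned to -0.26 under vehicle and -0.20 under imeglimin. The glucose comparisons share libraries with the imeglimin comparisons, so these 4 sets of values are not independent.

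**Figure D2:**
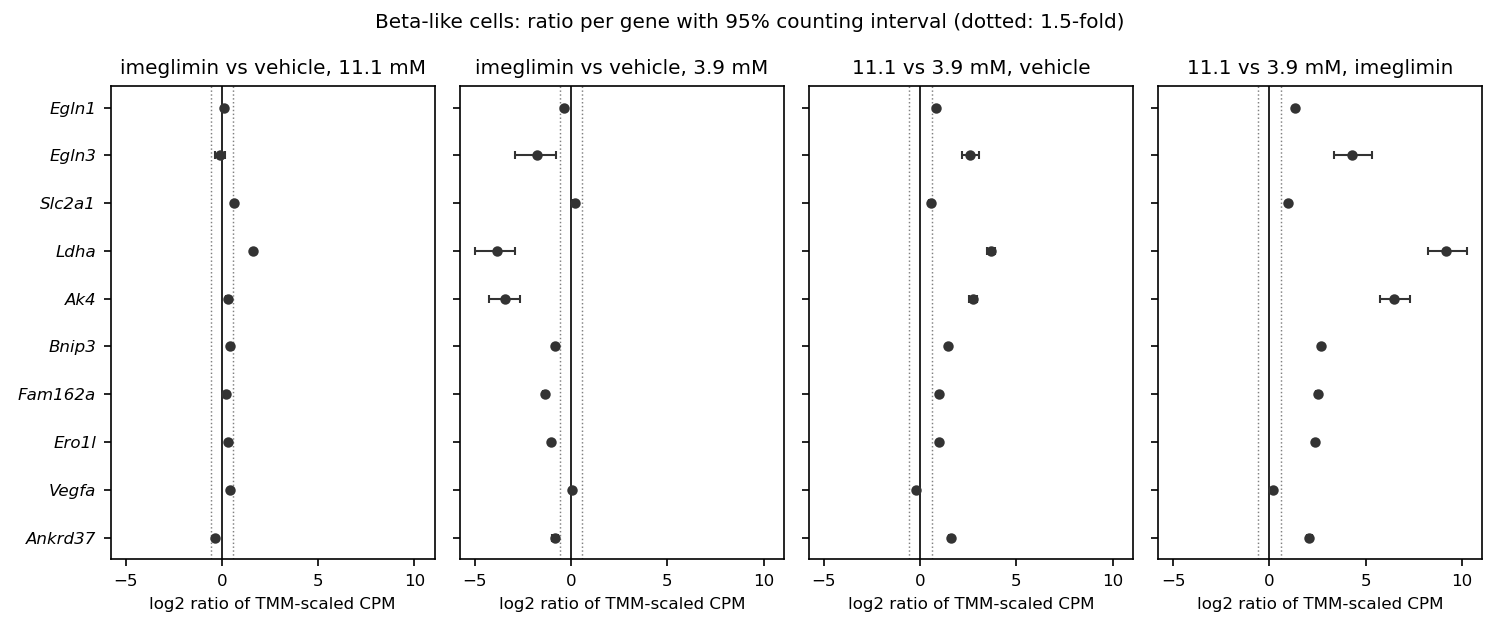
The log2 ratio of each gene in beta-like cells for the 4 comparisons, as points with 95% counting intervals, where dotted lines mark 1.5-fold in either direction. The glucose ratios lie right of 0 for all genes but Vegfa under vehicle, and the imeglimin ratios lie right of 0 for 8 of 10 genes at 11.1 mM, with Ankrd37 and Egln3 to the left, and mostly to the left at 3.9 mM.

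Apart from the members Egln1 and Egln3, most genes of the oxygen-sensing machinery did not share the members' direction by glucose in beta-like cells. Hif1a, the HIF subunit found in most cells, had 73.6 CPM with imeglimin at 11.1 mM, 58.7 CPM with vehicle at 11.1 mM, 78.3 CPM with imeglimin at 3.9 mM and 68.4 CPM with vehicle at 3.9 mM. Epas1, the alternative subunit typical of endothelium, was at most 0.129 CPM there. Of 15 genes in a list of HIF subunits, hydroxylases, the von Hippel-Lindau complex, coactivators of HIF and Cited2, 13 reached 5 CPM. Of these, 1 was at least 1.5-fold higher and 3 that much lower at 11.1 against 3.9 mM under vehicle, where 10.3% and 18.5% of all genes were, and 1 was higher and 1 lower under imeglimin, where 16.9% and 20.4% were. Arnt2, an HIF partner related to ARNT and named after its values were seen, was lower under both, with 7.22 CPM with imeglimin at 11.1 mM, 4.71 CPM with vehicle at 11.1 mM, 12.1 CPM with imeglimin at 3.9 mM and 15.3 CPM with vehicle at 3.9 mM. Cited2, which competes with HIF for its coactivators, was the gene higher under both, by 0.64 and 0.67 on the log2 scale under vehicle and imeglimin. Vhl was at 14.7 CPM with vehicle at 11.1 mM and 24.3 CPM with vehicle at 3.9 mM. Against vehicle at 11.1 mM, imeglimin had 3 of the 13 that much higher, Arnt2 at 0.62, Elob at 0.60 and Cul2 at 0.59, where 5.94% of all genes were. At 3.9 mM 2 of 13 were, Arnt at 0.65 and Hif1an at 0.66, where 11.1% of all genes were.

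Other genes known as HIF targets shared the members' direction by glucose. Of 14 glycolytic genes, 12 reached 5 CPM, and 11 of these were at least 1.5-fold higher at 11.1 against 3.9 mM under vehicle, as were 11 under imeglimin, with medians of 1.30 and 2.02. Of all genes compared, 10.3% were that much higher under vehicle and 16.9% under imeglimin. Pgk1, the first glycolytic enzyme that yields ATP, had 523 CPM with imeglimin at 11.1 mM and 82.2 CPM with imeglimin at 3.9 mM, against 466 CPM with vehicle at 11.1 mM and 159 CPM with vehicle at 3.9 mM. Eno2 was the one glycolytic gene that much lower under vehicle, at 15.9 CPM at 11.1 mM and 36.9 CPM at 3.9 mM. Imeglimin against vehicle at 3.9 mM had 8 of 12 glycolytic genes at least 1.5-fold lower, where 14% of all genes were, with Aldoa and Eno1 at -1.04 each. At 11.1 mM it had 0 higher and 1, Aldoc at -0.81, lower, where 5.94% and 5.61% of all genes were.

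In a further list of 39 HIF targets, 27 reached 5 CPM under vehicle. At 11.1 against 3.9 mM 16 of these were at least 1.5-fold higher and 1 lower, where 10.3% and 18.5% of all genes were. Under imeglimin 29 reached 5 CPM, and 17 were higher and 4 lower, where 16.9% and 20.4% of all genes were. Imeglimin against vehicle had 2 higher and 2 lower of 29 at 11.1 mM, and 4 higher and 5 lower of 25 at 3.9 mM. These counts lay near the shares of all genes, 5.94% and 5.61% at 11.1 mM and 11.1% and 14% at 3.9 mM. Higd1a, a HIF-induced protein of the respiratory chain, had 41.4 CPM with imeglimin at 11.1 mM, 11.8 CPM with vehicle at 11.1 mM, 1.64 CPM with imeglimin at 3.9 mM and 1.69 CPM with vehicle at 3.9 mM. Gys1, the glycogen synthase of muscle and most tissues, was higher at 11.1 mM by 1.82 under vehicle and 3.85 under imeglimin. Ccng2, an atypical cyclin, went the other way under imeglimin, at 6.75 CPM at 11.1 mM and 29.1 CPM at 3.9 mM. Hmox1, the haem-degrading enzyme, had 106 CPM with imeglimin and 293 CPM with vehicle at 11.1 mM. Tfrc, the transferrin receptor, had 104 CPM with imeglimin and 33.6 CPM with vehicle at 3.9 mM.

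Of the lists near Ero1l in function, the ATF4 and CHOP branch did not follow the members by glucose. Oxidative folding was mixed under vehicle and leaned higher under imeglimin. Of all genes compared, 10.3% were at least 1.5-fold higher and 18.5% lower by glucose under vehicle, and 16.9% and 20.4% under imeglimin. For imeglimin against vehicle these shares were 5.94% and 5.61% at 11.1 mM, and 11.1% and 14% at 3.9 mM. Of 8 genes of the ATF4 and CHOP branch of the stress response, 0 were at least 1.5-fold higher and 3 lower at 11.1 against 3.9 mM under vehicle, and 1 higher and 5 lower under imeglimin. Ddit3, which encodes CHOP, had 394 CPM with imeglimin at 11.1 mM, 131 CPM with vehicle at 11.1 mM, 1858 CPM with imeglimin at 3.9 mM and 1161 CPM with vehicle at 3.9 mM. Against vehicle, imeglimin had 5 of the 8 higher at 11.1 mM and 4 at 3.9 mM, and 0 lower at either, with Trib3 at 1.58 at 11.1 mM and Atf3 at 2.07 at 3.9 mM on the log2 scale. Of 6 genes of oxidative folding, 2 were higher and 1 lower at 11.1 mM under vehicle, with Hspa5 at -0.77, and 3 higher and 0 lower under imeglimin, with P4hb at 1.29. Their median log2 ratios were 0.09 under vehicle and 0.37 under imeglimin, beside -0.13 and -0.07 over all genes. Imeglimin had 1 higher and 1 lower of these 6 at 11.1 mM and 0 in either direction at 3.9 mM. Of 11 paralogs of the members, 9 reached 5 CPM. At 11.1 against 3.9 mM, 3 were higher and 0 lower under vehicle, and 4 higher and 1 lower under imeglimin. The median log2 ratios of these paralogs were -0.16 and 0.49. Slc2a2, which encodes GLUT2, the main glucose transporter of mouse beta cells, had 75.8 CPM with imeglimin at 11.1 mM, 254 CPM with vehicle at 11.1 mM, 31.0 CPM with imeglimin at 3.9 mM and 42.8 CPM with vehicle at 3.9 mM, while Slc2a1 was highest with imeglimin at 11.1 mM. Against vehicle, imeglimin had 0 paralogs higher and 3 lower at 11.1 mM, and 1 higher and 3 lower at 3.9 mM, with Ak3 at -1.02. None of the 4 VEGF-A receptor genes reached 5 CPM in beta-like cells.

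The higher level of the members at 11.1 mM glucose was found in each of the other 6 classes compared. In these smaller classes a gene entered the background count at 20 CPM in either library. Under vehicle the median log2 ratio of the 10 members at 11.1 against 3.9 mM was 1.40 in alpha-like, 1.80 in delta-like, 1.72 in pp-like, 2.25 in endothelial-like, 2.16 in macrophage-like and 1.51 in stromal-like cells, where the medians over all genes lay between -0.05 and 0.02. Under imeglimin the medians were 1.49, 1.83, 1.55, 2.62, 2.62 and 2.39 in the same order of classes, with medians over all genes between -0.12 and 0.00. Vegfa was the member nearest 0 in 11 of the 12 comparisons, with ratios between -0.04 and 0.73. In pp-like cells under vehicle Slc2a1 was nearer 0, at 0.32.

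Counts past 1.5-fold were above the background share in each of these classes. The members were chosen with earlier results of these data known, which bears on every such count here. Under vehicle 7 of 10 members were higher in alpha-like cells, where 0.823% of 6319 genes were higher and 0.538% lower, and 7 in delta-like cells, where 3.38% were higher and 2.1% lower. In pp-like cells 8 were higher, where 6.02% of genes were higher and 5.72% lower. In endothelial-like cells 9 were higher, where 7.39% of genes were higher and 6.84% lower. In macrophage-like cells 9 were higher, where 11.1% of genes were higher and 11.8% lower, and in stromal-like cells 10, where 13.6% were higher and 9.13% lower. No member was that much lower. Of the 10, 3, 1, 3, 0, 1 and 0 were under 20 CPM in both libraries in the order alpha-like, delta-like, pp-like, endothelial-like, macrophage-like and stromal-like. Under imeglimin 8, 8, 9, 9, 9 and 10 members were that much higher in the same order of classes, where 4.04%, 7.06%, 4.39%, 8.17%, 17.6% and 14.6% of genes were. No member was that much lower, where 9.91%, 13.6%, 6.05%, 8.64%, 16.3% and 11.5% of genes were. Under 20 CPM in both were 1, 2, 3, 0, 1 and 0 members. The member counts under either treatment include such members, while the shares leave out genes that low.

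Alpha-like cells, which make glucagon, were the class of these 6 with the fewest genes past 1.5-fold by glucose under vehicle. Bnip3 had 145 CPM with vehicle at 11.1 mM and 51.9 CPM with vehicle at 3.9 mM, and Ldha had 39.7 CPM and 1.67 CPM in the same order. Among the 52 genes that were at least 1.5-fold higher there, 4 were members, 11 were from the glycolytic list and 6 from the list of other HIF targets, that is 7.69%, 21.2% and 11.5% of the 52. These were 57.1% of the 7 members, 91.7% of the 12 glycolytic genes and 40% of the 15 other targets that reached 20 CPM, a limit that a gene can pass through its higher library alone. Among the 261 genes higher under imeglimin, 7 were members, 12 glycolytic and 10 other HIF targets, that is 2.68%, 4.6% and 3.83% of the 261. The same cluster, 10, held most alpha-like cells of both vehicle libraries (568 of 639 at 11.1 mM and 613 of 645 at 3.9 mM), and cluster 6 held most of both imeglimin libraries (784 of 833 and 1321 of 1340).

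In plain CPM, which is set on the same scale in every class, endothelial-like cells held more Ankrd37 than any other class in all 4 libraries, and stromal-like cells more Egln3, Fam162a and Ldha. The levels printed below in this paragraph are TMM-scaled, to compare the libraries of a class. Ldha in endothelial-like cells stood at 900 CPM with imeglimin at 11.1 mM, 1118 CPM with vehicle at 11.1 mM, 148 CPM with imeglimin at 3.9 mM and 311 CPM with vehicle at 3.9 mM. An Ldha UMI was found in 88.2%, 90.1%, 45.1% and 67.3% of these cells in that order. Slc2a1 in the same cells stood at 268, 408, 55.2 and 80.8 CPM in that order. Egln3 was highest in stromal-like cells, with 95.5 CPM with imeglimin at 11.1 mM, 140 CPM with vehicle at 11.1 mM, 5.77 CPM with imeglimin at 3.9 mM and 13.8 CPM with vehicle at 3.9 mM. Ankrd37 in stromal-like cells had 191, 166, 2.88 and 56.6 CPM in that order, where the level of imeglimin at 3.9 mM rested on 2 UMIs. Macrophage-like cells were the highest class for no member, and had 380, 305, 46.7 and 59.7 CPM of Bnip3 in that order. Epas1 was at 247, 153, 319 and 253.5 CPM in endothelial-like cells in that order, so it did not share the direction of the members there.

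In the other classes the direction of the members by imeglimin depended on the class. At 11.1 mM all 10 ratios were above 0 in alpha-like cells and 8 of 10 were below 0 in endothelial-like cells. At 3.9 mM 9 of 10 were below 0 in stromal-like cells and 8 of 10 in endothelial-like cells. At 11.1 mM the median log2 ratio against vehicle was 0.78 in alpha-like, 0.30 in delta-like, 0.04 in pp-like, -0.25 in endothelial-like, 0.24 in macrophage-like and -0.17 in stromal-like cells. At least 1.5-fold higher were 6, 0, 1, 0, 1 and 1 members in this order of classes, where 5.85%, 4.65%, 9.54%, 8.85%, 11.5% and 10.9% of genes were. At least 1.5-fold lower were 0, 0, 2, 2, 0 and 1 members, where 5.35%, 5.37%, 9.34%, 9.63%, 10.8% and 13.3% of genes were. At 3.9 mM the medians were 0.18, 0.17, -0.26, -0.70, -0.61 and -0.82 in this order. At least 1.5-fold higher were 3, 3, 1, 0, 1 and 0 members, where 16.9%, 19.6%, 13.2%, 9.66%, 13.9% and 14.2% of genes were. At least 1.5-fold lower were 3, 2, 3, 5, 6 and 6 members, where 9.93%, 10.3%, 9.8%, 10.4%, 15.5% and 15.6% of genes were. Under 20 CPM in both libraries were 1, 1, 3, 0, 1 and 0 members at 11.1 mM and 5, 2, 4, 2, 3 and 2 at 3.9 mM. The member counts include these, while the shares leave out genes that low. In alpha-like cells at 3.9 mM all 3 members called lower (Ankrd37, Ldha and Ak4) were that low. So were Egln3 and Slc2a1 among the 3 called higher. Egln3 in macrophage-like cells (0 UMIs with imeglimin, 7 with vehicle) and Ldha in pp-like cells (0 and 13) were called lower as bounds. At 3.9 mM 2 members in pp-like cells and 1 in macrophage-like cells had too few UMIs for a ratio.

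Vegfa was higher with imeglimin at both glucose levels in alpha-like cells. It stood at 297 CPM with imeglimin at 11.1 mM, 162 CPM with vehicle at 11.1 mM, 280 CPM with imeglimin at 3.9 mM and 146 CPM with vehicle at 3.9 mM. Both imeglimin libraries were above both vehicle libraries, with log2 ratios of 0.88 (0.75 to 1.00) at 11.1 mM and 0.94 (0.84 to 1.05) at 3.9 mM. Slc2a1 had the same order there, with 25.6 CPM with imeglimin and 13.9 CPM with vehicle at 11.1 mM, and 16.9 CPM with imeglimin and 4.54 CPM with vehicle at 3.9 mM. Plain CPM placed the median of all genes in alpha-like cells 0.11 lower at 11.1 mM and 0.25 lower at 3.9 mM, less than these ratios. In pp-like cells Vegfa was at 0.35 and 0.85, and in macrophage-like cells at 0.76 in each. In stromal-like cells Vegfa was lower with imeglimin at both glucose levels, with 204 CPM against 326 CPM with vehicle at 11.1 mM and 123 CPM against 209 CPM with vehicle at 3.9 mM. The 9 beta-cell markers summed to 26460, 20640, 79540 and 13190 plain CPM in alpha-like cells in the order imeglimin 11.1 mM, vehicle 11.1 mM, imeglimin 3.9 mM and vehicle 3.9 mM, with 0 of the 9 absent. Beta-cell RNA in alpha-like cells was thus highest with imeglimin at 3.9 mM, and its part in the alpha-like ratios was not tested.

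**Figure D3:**
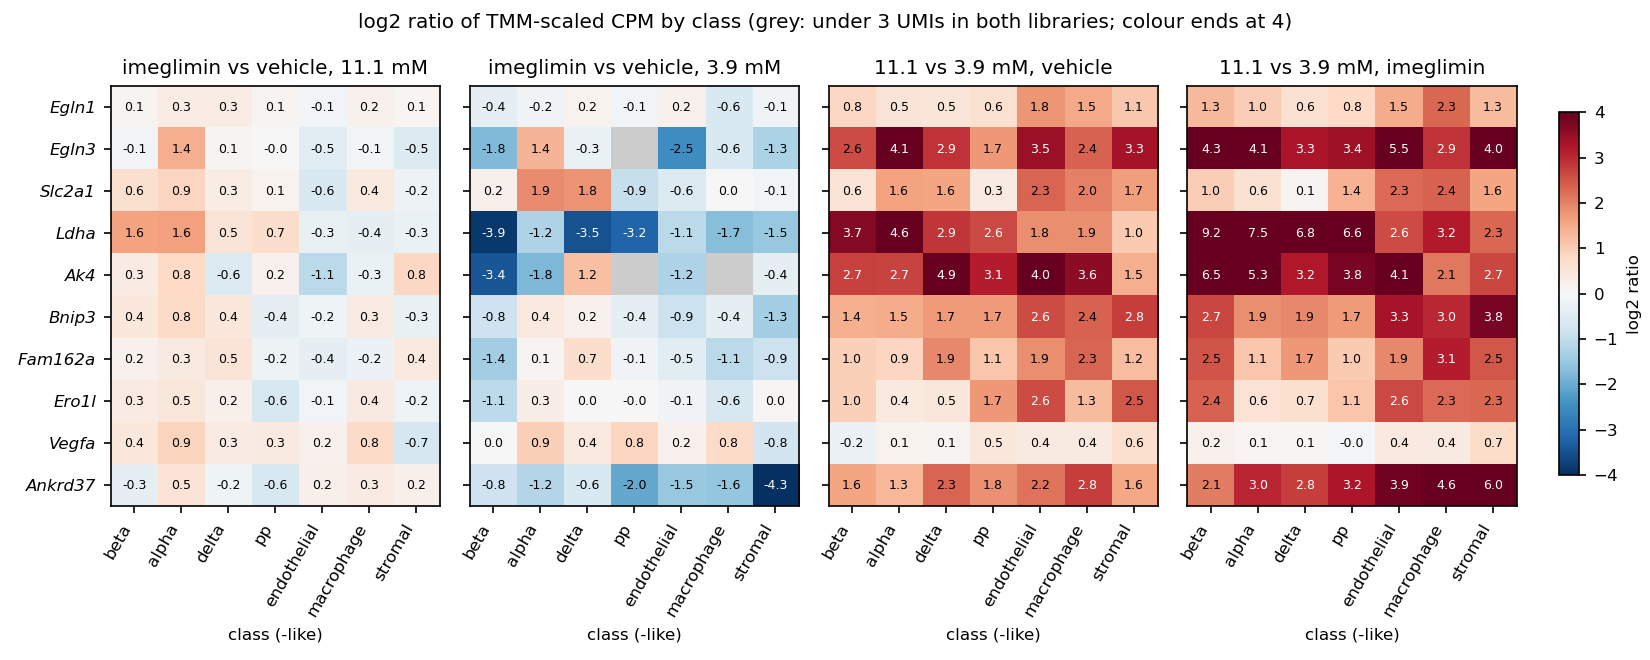
The log2 ratio of TMM-scaled CPM for each gene (rows) in 7 cell classes (columns) for the 4 comparisons, with the value in each cell, red for higher and blue for lower in the group named first, and grey where both libraries had under 3 UMIs. A library with 0 UMIs was set to 3, so such values are bounds, and the colour ends at 4 in either direction. Nearly every value outside the Vegfa row is above 0 in the glucose panels, and the imeglimin panels are mixed.

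More of the members were found per beta-like cell at 11.1 mM glucose. Each cell was thinned to 3000 UMIs, which left 5372, 4791, 4330 and 4540 cells for imeglimin at 11.1 mM, vehicle at 11.1 mM, imeglimin at 3.9 mM and vehicle at 3.9 mM. A thinned cell held on average 5.23, 4.01, 1.66 and 2.87 member UMIs in that order. At least 5 of the 10 genes were found in 19.6%, 13.2%, 0.231% and 4.25% of cells, which is 1054, 633, 10 and 193 cells. None of the 10 was found in 10%, 16.3%, 22.7% and 10.8% of cells. Vehicle at 11.1 mM thus had more cells with 0 members than vehicle at 3.9 mM, 16.3% against 10.8%, and also more cells with at least 5. These shares also follow the members' levels, and how far they exceed what the levels alone would give was not tested. The tenth of cells with most member UMIs held 35.5%, 39.9%, 28.1% and 33.9% of them in the same order.

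**Figure D4:**
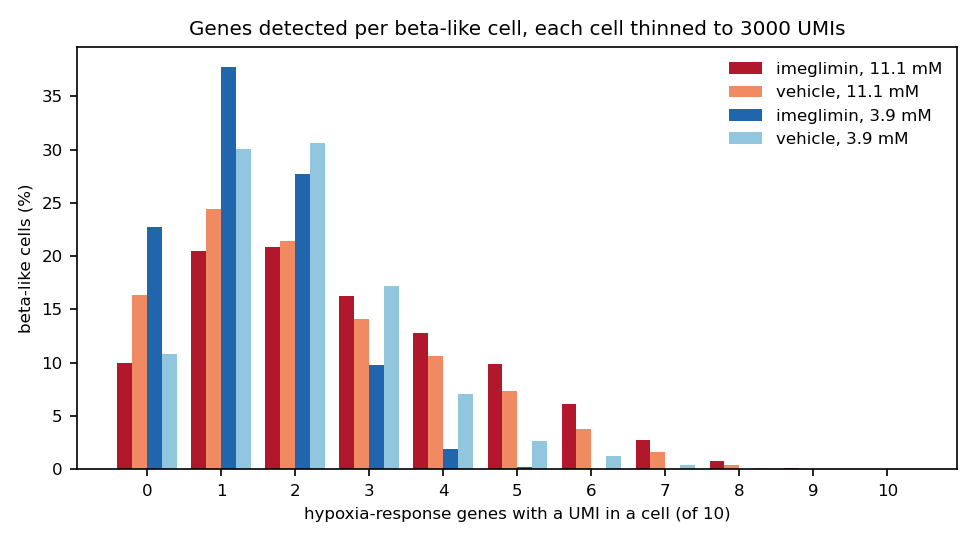
Share of beta-like cells, in percent, by how many of the 10 genes had a UMI after each cell was thinned to 3000 UMIs, with bars in the order imeglimin 11.1 mM, vehicle 11.1 mM, imeglimin 3.9 mM and vehicle 3.9 mM. The 11.1 mM libraries have a long tail past 5 genes, and no cell of imeglimin at 3.9 mM held more than 5.

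Cells with many members had somewhat fewer UMIs at 11.1 mM glucose but not with imeglimin at 3.9 mM. At 11.1 mM, cells with at least 5 members had medians of 11835 UMIs with imeglimin and 12626 with vehicle before thinning, and cells with fewer had 13145.5 and 13213. At 3.9 mM, cells with at least 5 members had medians of 10772.5 UMIs with imeglimin, over 10 cells, and 12029 with vehicle, and cells with fewer had 10225.5 and 12174. At 11.1 mM the median mitochondrial share of cells with at least 5 members was 2.07% and 1.99%, and that of the cells with fewer was 2.36% and 2.6%. Insulin genes made up 24.7% and 27.6% of their thinned UMIs, and 28.9% and 34.2% in cells with fewer. The other classes had such cells too. At least 5 members were found in 43.6% of 220 thinned endothelial-like cells with imeglimin at 11.1 mM, 50% of 164 with vehicle at 11.1 mM, 0.746% of 268 with imeglimin at 3.9 mM and 6.08% of 148 with vehicle at 3.9 mM. In alpha-like cells the shares were 10.8%, 4.4%, 0.153% and 0.486% in that order.

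Some members went together over cells in 3 of the 4 libraries, and others did so weakly or not at all. Against the sum of the other 9, Bnip3 had a Pearson r of 0.583 with imeglimin and 0.568 with vehicle at 11.1 mM, Egln3 had 0.088 and 0.143, and Vegfa had 0.078 and 0.148. Over thinned beta-like cells, the median Pearson r of the 45 pairs, on log counts, was 0.135 with imeglimin at 11.1 mM, 0.138 with vehicle at 11.1 mM, 0.00 with imeglimin at 3.9 mM and 0.10 with vehicle at 3.9 mM. The cells of a library share its depth and processing, and in sparse counts these values describe the cells and carry no test. The highest pair at 11.1 mM was Bnip3 with Ero1l, at 0.507 with imeglimin and 0.510 with vehicle. With imeglimin at 3.9 mM no pair was above 0.071, and member UMIs were also fewest there. Pairs with Vegfa had medians of 0.044, 0.075, 0.022 and 0.025 in the order imeglimin 11.1 mM, vehicle 11.1 mM, imeglimin 3.9 mM and vehicle 3.9 mM.

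**Figure D5:**
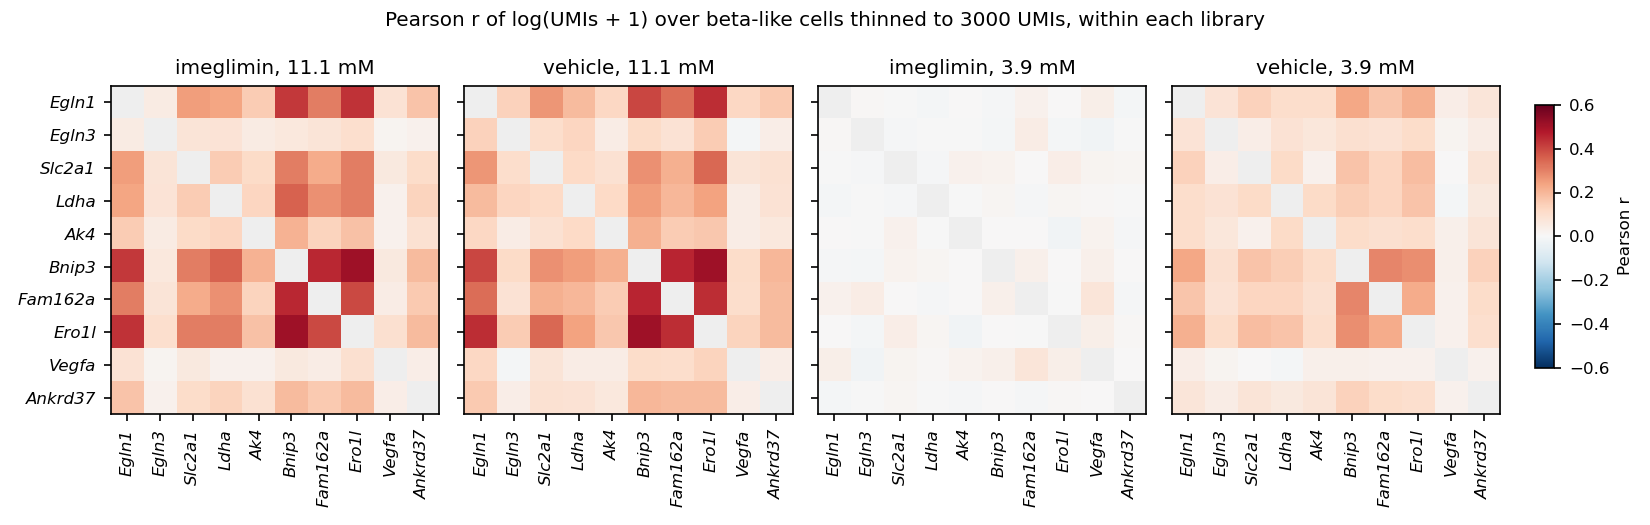
Pearson r for each pair of genes over beta-like cells thinned to 3000 UMIs, on log counts, in 4 panels in the order imeglimin 11.1 mM, vehicle 11.1 mM, imeglimin 3.9 mM and vehicle 3.9 mM. Bnip3, Ero1l, Fam162a and Egln1 form the darkest block at 11.1 mM, the Vegfa row is pale throughout, and the panel of imeglimin at 3.9 mM is near 0.

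The genes outside the 10 whose counts followed the summed members most closely over beta-like cells were mostly glycolytic. Among 4529 genes with at least 20 CPM in every library, the median of the mean r over the 4 libraries was 0.02 and 76 genes were above 0.1. The 10 highest were Mif, a secreted cytokine, at 0.40, Gapdh at 0.38, Pgk1 at 0.36, Pgam1 at 0.35, Aldoa at 0.34, Bsg at 0.30, Eno1, Tpi1 and Pkm at 0.28, 0.28 and 0.27, and Mt1 at 0.26. Bsg encodes basigin, a partner of lactate transporters at the membrane, and Mt1 a metallothionein that binds zinc. For 8 of these 10, all but Bsg and Mt1, the gene was in the lists of HIF targets. Those lists hold 14 and 39 genes, and how many of them are among the 4529 was not counted. They were also chosen with earlier results of these data known. Mif had r of 0.589 with imeglimin at 11.1 mM, 0.624 with vehicle at 11.1 mM, 0.068 with imeglimin at 3.9 mM and 0.331 with vehicle at 3.9 mM. Mt1 was uneven, with 0.228 and 0.555 at 11.1 mM and 0.168 and 0.092 at 3.9 mM for imeglimin and vehicle.

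Over the 28 sums of 7 classes in 4 libraries, which share libraries and classes, the mean log2 level of the members was followed most closely by Pgk1, Gpi1, P4ha1, Aldoa and Eno1, with Pearson r between 0.931 and 0.956. P4ha1 encodes a subunit of the prolyl hydroxylase that modifies collagen. Each member was also set against the mean of the other 9 over the same sums. Fam162a was highest at 0.939 and Egln3 next at 0.914, Bnip3 was at 0.701, and Vegfa was at -0.034.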

How the data were processed

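The deposited files were 10x count matrices of UMIs per gene and barcode, 1 for each of 4 libraries, made by the authors with Cell Ranger 6.0.2 against mm10, per the submitters' processing notes. Cells below 1000 UMIs or 500 genes, or above 20% mitochondrial UMIs, were left out, leaving 105649755, 102916966, 90066780 and 94712118 UMIs for imeglimin 11.1 mM, vehicle 11.1 mM, imeglimin 3.9 mM and vehicle 3.9 mM. All cells were clustered together (scanpy 1.11.5 and leidenalg 0.10.2, 2000 variable genes, 30 components, 15 neighbours, resolution 1), and clusters were named from marker genes by a scoring rule chosen after the clusters were seen. Clusters that mixed hormones or had few UMIs stayed unnamed. Scrublet, run in scanpy, called 0 doublets in every library, so it did not work and no doublet was removed.

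Counts were summed per class and library and scaled with TMM (edgeR 4.0.16, R 4.3.3). Ratios took genes at 5 CPM (beta-like) or 20 CPM (other classes) in either library as background, and 0 UMIs were set to a floor of 3 per library. Exact Poisson and Clopper-Pearson 95% intervals (SciPy 1.17.1) cover counting error only. Thinning drew 3000 UMIs per cell. The scaling and ratio steps were run on simulated beta-like sums with known changes. These changes were balanced up and down and did not imitate the differences in insulin share between the real libraries. How the scaling handles such differences was therefore not tested. All 10 members were named in each comparison, and text genes were drawn from the 2 highest and 2 lowest ratios of each of 7 lists among genes at 20 CPM in either beta-like library, plus the 10 genes nearest to the members over cells and the 5 nearest over class sums. Hif1a, Epas1, Arnt2 and the VEGF-A receptors were named outside that rule, with their values seen. The members and lists were chosen with earlier results of these data known. Of 32285 gene IDs, 32235 were placed in GENCODE vM21. Alternatives covered scaling, cell limits, doublet scores, clustering and low counts.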

Additional observations from a re-analysis of the deposited data

Results flagged for a closer look

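The log2 ratio of imeglimin to vehicle had opposite signs at 11.1 and 3.9 mM glucose, each beyond its counting interval, for several members. The value at 11.1 mM minus that at 3.9 mM was 1.251 for Bnip3, 1.395 for Ero1l, 0.470 for Egln1, 1.560 for Fam162a, 5.487 for Ldha and 3.745 for Ak4 in beta-like cells. In alpha-like cells it was 0.458 for Egln1, 1.716 for Ankrd37 and 2.570 for Ak4. It was 3.986 for Ldha in delta-like cells, 1.726 for Ankrd37 in endothelial-like cells, 0.996 for Ero1l in macrophage-like cells and 1.270 for Fam162a in stromal-like cells. The beta-like values of Ldha and Ak4 rest on 9 and 15 UMIs with imeglimin at 3.9 mM, where the intervals of the log2 ratio ran from -5.01 to -2.91 and from -4.27 to -2.66. Some of the signs depend on the processing. Without the cluster that the members lead, the log2 ratio of Bnip3 in beta-like cells was below 0 at 11.1 mM too. Leaving hormone and mitochondrial genes out of the total lowered the beta-like median at 11.1 mM by more than the 0.112 of Egln1 there. With 1 library per condition the differences between glucose levels were not tested.

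Barcodes outside the cell limits, used in no comparison, also held member UMIs. The 10 members summed to 946.9 plain CPM with imeglimin at 11.1 mM, 765.6 with vehicle at 11.1 mM, 518.3 with imeglimin at 3.9 mM and 740.9 with vehicle at 3.9 mM in those barcodes. In kept cells of all classes the sums were 1590, 1273, 538.5 and 856.4 plain CPM in the same order.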

How the results depend on the processing

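Values are the median log2 ratio of the 10 members in beta-like cells. For imeglimin against vehicle at 11.1 mM (0.336) it was 0.152 without hormone and mitochondrial genes in the total, and -0.109 without the cluster that the members lead, an alternative chosen after seeing the data. For imeglimin against vehicle at 3.9 mM (-0.944) it was -1.245 in plain CPM, -1.092 without hormone and mitochondrial genes, -1.261 as the mean of CPM per cell, -1.056 in thinned cells and -0.711 without that cluster. For 11.1 against 3.9 mM under vehicle (1.19) it was 0.795 in plain CPM, 1.235 with median-of-ratios size factors, 1.375 without hormone and mitochondrial genes, 0.837 as the mean of CPM per cell, 1.225 in thinned cells, 1.134 at cluster resolution 0.5, 0.967 without members under 5 CPM and 0.779 without that cluster. Under imeglimin (2.44) it was 2.299 in plain CPM, 2.584 without hormone and mitochondrial genes, 2.540 in thinned cells, 2.362 without members under 5 CPM and 1.365 without that cluster. Slc2a1 at 11.1 against 3.9 mM under imeglimin turned to -0.199 without that cluster (0.991 otherwise). Leaving out that cluster removes cells high in members by construction, and the cause of the other shifts was not tested. Over 12 settings, 474 single-gene values were counted. These include 40 from all kept cells, which are not only beta-like. They also include 34 from leaving out members under 5 CPM, which cannot change a single-gene value. Of 307 that were past 1.5-fold at first, 306 kept their direction and 294 stayed past it, and of the other 167, 9 were then past it. Without the cluster that the members lead, 25 of 26 kept their direction and 20 stayed past 1.5-fold.

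No paired analysis was possible because each condition has 1 library, for the same reason no library could be left out, and differences between cultures cannot be told apart from the conditions. Depth limits Egln3, Ldha and Ak4 at 3.9 mM, where beta-like sums held as few as 9 UMIs.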
